A study of Mus musculus with 4 samples.

Results

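The FOS and JUN family comprises 7 genes, Fos, Fosb, Fosl1, Fosl2, Jun, Junb and Jund, which encode subunits of the transcription factor AP-1. They were chosen by name among the 18193 genes that the array's annotation pairs with a probe set of 1 gene symbol, and all 7 were found, with 11 probe sets between them. A probe set is a group of short probes against 1 transcript, read out as a single signal. Fosl1, Fosl2, Jun and Jund had 2 probe sets each and Fos, Fosb and Junb had 1, and 0 probe sets of the family were shared with another gene. MC3T3-E1 is a mouse preosteoblast line with a fibroblast-like shape, derived from the skull cap (calvaria) of newborn C57BL/6 mice. Each of the 4 groups gave 1 total RNA sample for an Affymetrix Mouse Genome 430 2.0 array, so no group has replicates. The groups were osteogenic medium at day 6, normal medium at day 6, osteogenic medium at day 3 and normal medium at day 3. Both media were MEM α with 10% fetal bovine serum, and osteogenic medium also held 10 mM of beta-glycerophosphate, a phosphate donor, with 150 µM of ascorbic acid 2-phosphate, a stable form of vitamin C. All groups thus had serum, and the interval between the last change of medium and harvest is not given in the sources used here.

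AP-1 is a dimer that binds DNA through a basic region and a leucine zipper. JUN proteins can pair with each other or with FOS proteins, whereas FOS proteins need a JUN partner or another zipper protein. Fos, Fosb, Jun and Junb are classical immediate-early genes, whose short-lived transcripts appear within minutes of serum, growth factors or mechanical stress. Fosl1 and Fosl2 encode Fra-1 and Fra-2, which usually follow later, and Jund is often expressed steadily. In mice, excess Fra-1 or a short form of FosB in bone cells raises bone mass, and Fra-2 promotes collagen and osteocalcin production by osteoblasts.

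The promoters of Fos, Fosb and Junb are shown, with that of Jun, also an immediate-early gene, for contrast. This choice was made because Fos and Junb shared 1 order of the arrays while Jun was level. The sequences are those of RefSeq (build GRCm38.p6), from 250 bases before to 50 after the annotated start, and RefSeq windows were matched by symbol for 6 of the 7 members. Capitals mark any match, on both strands, to the cAMP response element TGACGTCA or its core TGACG, which lies within it, to the AP-1 site TGANTCA, to TGACATCA, the variant known from the Jun promoter, to the EGR site GCGNGGGCG, to TATAAA and to the CArG box bound by serum response factor.
Fos, chr12:85473640-85473939, forward strand: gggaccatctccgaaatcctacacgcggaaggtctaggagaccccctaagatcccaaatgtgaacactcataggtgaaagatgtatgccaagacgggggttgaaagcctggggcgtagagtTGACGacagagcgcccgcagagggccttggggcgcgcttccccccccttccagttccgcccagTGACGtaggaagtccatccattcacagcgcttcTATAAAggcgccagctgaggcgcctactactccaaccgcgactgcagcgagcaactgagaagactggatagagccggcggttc
Fosb, chr7:19309996-19310295, reverse strand: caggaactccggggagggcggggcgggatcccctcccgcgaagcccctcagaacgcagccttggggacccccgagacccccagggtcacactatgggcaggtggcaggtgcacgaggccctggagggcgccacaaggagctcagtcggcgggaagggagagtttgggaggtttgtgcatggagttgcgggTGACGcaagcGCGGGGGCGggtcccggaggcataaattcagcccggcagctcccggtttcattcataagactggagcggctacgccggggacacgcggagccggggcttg
Junb, chr8:84978699-84978998, reverse strand: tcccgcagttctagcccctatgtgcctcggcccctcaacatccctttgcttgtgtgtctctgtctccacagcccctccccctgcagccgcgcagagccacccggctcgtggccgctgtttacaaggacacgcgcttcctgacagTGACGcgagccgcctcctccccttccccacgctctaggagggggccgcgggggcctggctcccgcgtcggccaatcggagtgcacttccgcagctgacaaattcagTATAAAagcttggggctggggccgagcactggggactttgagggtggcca
Jun, chr4:95052173-95052472, reverse strand: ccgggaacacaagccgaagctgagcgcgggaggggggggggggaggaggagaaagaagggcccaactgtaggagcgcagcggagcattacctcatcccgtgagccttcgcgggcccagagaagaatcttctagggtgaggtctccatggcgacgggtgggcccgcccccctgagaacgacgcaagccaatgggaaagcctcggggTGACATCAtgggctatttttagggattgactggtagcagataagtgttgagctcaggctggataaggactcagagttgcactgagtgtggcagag

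TGACG was found in 3 of the 6 promoters, those of Fos, Fosb and Junb, and in 20.8% of all 32851 RefSeq promoter windows of this length. The Fos window held it at positions -129 to -125 and -66 to -62 from the annotated start, the Fosb window at -60 to -56 and the Junb window at -106 to -102. TGACATCA was found in the Jun window alone among the 6, at -45 to -38, and in 3.62% of all windows. GCGNGGGCG was found in Fosb at -50 to -42 and in Fosl2 at -79 to -71, against 5.55% of all windows. TATAAA was found in Fos at -33 to -28 and in Junb at 1 to 6, against 13.6% of windows. The letters of the full cAMP response element (1.79% of all windows), of TGANTCA (7.81%) and of the CArG box (1.63%) were in 0 of the 6 windows. Sequence further than 250 bases before the start was not searched, so this does not show that a gene lacks such a site.

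Signals are the deposited intensities after each array was brought to a common 75th percentile, and a floor of 57.8, the median of all probe sets, marks the level under which a signal was not used. Of the 11 probe sets, 8 were above the floor on every array and 1, the dimmer one of Jund, on none, with signals of 49.6 and 55.1 in osteogenic and normal medium at day 6 and 38.4 and 33.6 at day 3. A gene is represented by its brighter probe set unless both are given. In counts, a gene is called higher or lower where its signals on a pair of arrays differ at least 2-fold, an absolute log2 difference of 1, and with 1 array per group no such difference has a p-value. As a yardstick, an error (1 SD, log2) was taken from the disagreement of paired probe sets that report on 1 gene. Over the 4 comparisons it was 0.175 to 0.204 (bright) where the dimmer set of a pair was at or over 4 times the floor. Where that set was under 4 times the floor (dim), it was 0.338 to 0.387. The other set of such a pair can be brighter, so this value may understate the error of a dim probe set. This error covers the probes and not the spread between cultures. A lower signal may stem from fewer expressing cells or from less RNA per cell, which cannot be told apart here.

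The osteoblast markers Sp7, Alpl, Col1a1, Ibsp and Sparc were above the floor on all arrays, while all 4 fat cell markers were below it on all. Of 4 endothelial markers, Pecam1, Cdh5 and Tek were below the floor throughout, and Kdr was above it in osteogenic medium at day 3 alone, with a signal of 79.1. Of 7 macrophage and osteoclast markers, 5 were below the floor throughout, and Csf1r and Ctsk were above it. Of 4 cartilage markers 2 were above the floor, Col2a1, higher in osteogenic medium by 2.28 at day 6 and 1.12 at day 3 (log2), and Sox9, with 0.22 and 0.06. Of 4 smooth muscle markers 3 were above it, Cnn1 with -0.91 at day 6 and 1.98 at day 3, Tagln with 0.60 and 0.86, and Acta2 with -0.31 and -0.12. The part of such markers in the differences below was not tested. The array of osteogenic medium at day 6 stood apart in the control signal for the 5′ end of 18S ribosomal RNA, 746 against 5202 to 9162 on the others. The ratio of 3′ to 5′ signal was 0.756 to 0.769 for Gapdh and 1.17 to 1.25 for beta-actin over the 4 arrays. The part of the low ribosomal signal in any difference that uses this array was not tested.

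**Figure D1:**
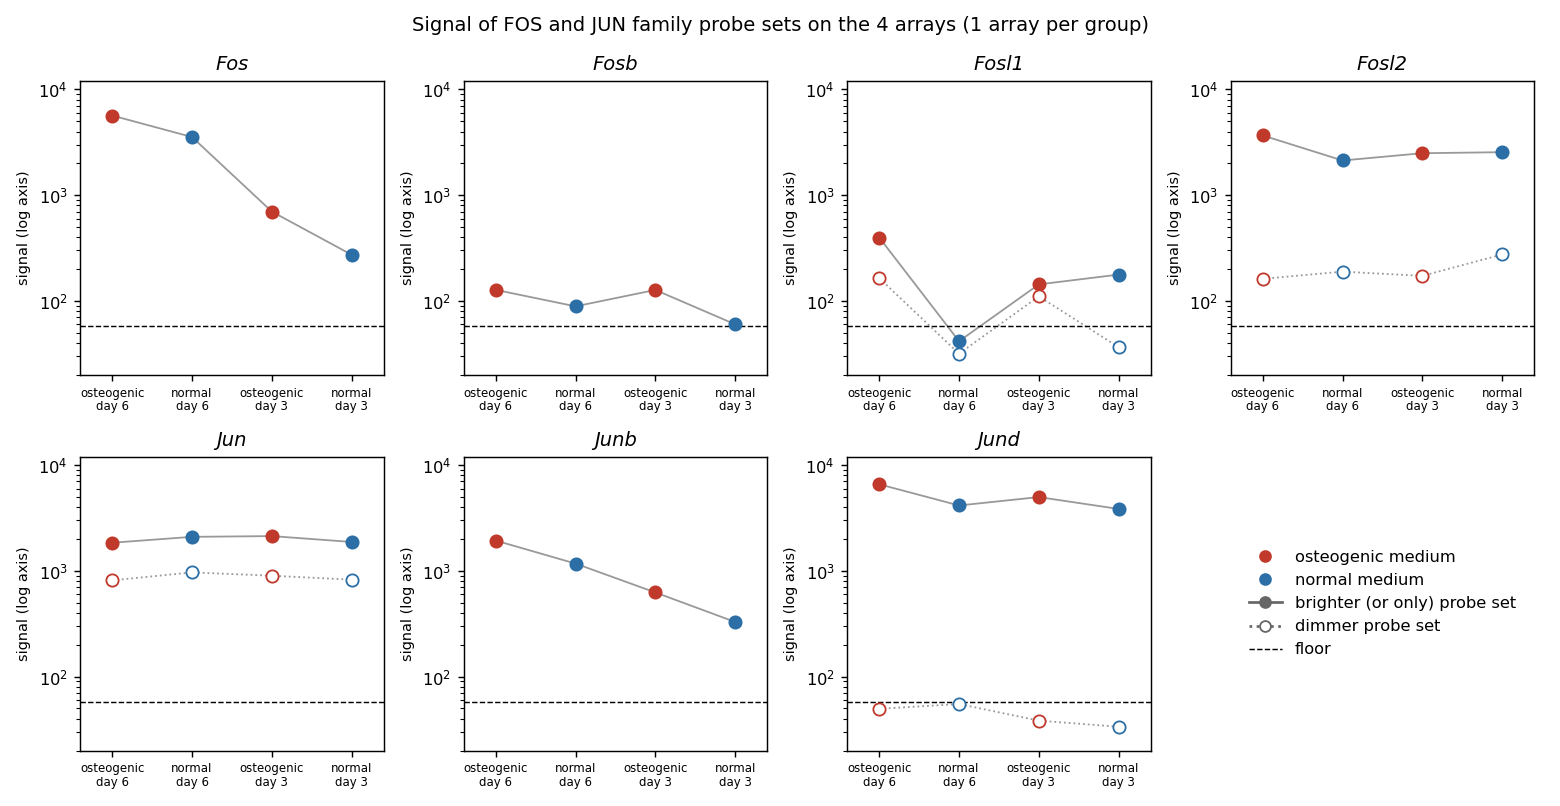
Signal (log axis) of each probe set of the family on each array, with osteogenic medium in red and normal medium in blue. Lines join the arrays of a probe set, open points are the dimmer probe set of a gene and the dashed line is the floor of 57.8. Fos and Junb are higher on both day 6 arrays than on either day 3 array, Fosl1 is highest in osteogenic medium at day 6, and Jun is level.

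Fos, which encodes c-Fos, was far higher at day 6 than at day 3 in either medium. Its signal was 5662 in osteogenic and 3545 in normal medium at day 6, and 699.9 in osteogenic and 274 in normal medium at day 3. The day 6 and day 3 arrays did not overlap, and within each day osteogenic medium was the higher. Each step in the order of the arrays, from osteogenic day 6 down to normal day 3, was over 2 SD of the error between probe sets, the smallest being 0.68 on the log2 scale. Day 6 over day 3, Fos was 13-fold higher in normal medium (log2 difference 3.70), where 0 of 11736 measured genes had a larger difference. It was 8.09-fold higher in osteogenic medium (3.02), where 5 of 11947 genes had a larger one. In osteogenic over normal medium it was 1.60-fold higher at day 6 (0.68) and 2.56-fold at day 3 (1.36), with 1086 and 78 genes above it. The day difference in normal medium and the medium difference at day 3 do not use the array with the low ribosomal signal.

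Junb, whose product pairs with FOS proteins and in many settings restrains proliferation, followed the same order of arrays over a smaller range. Its signal was 1934 in osteogenic and 1172 in normal medium at day 6, and 625 and 329 at day 3. Its neighbouring steps, 0.72, 0.91 and 0.93 on the log2 scale, were all over 2 SD of the error between probe sets. Day 6 over day 3 it was 3.56-fold higher in normal medium (1.83, with 7 genes above it) and 3.09-fold higher in osteogenic medium (1.63, with 90 above it). In osteogenic over normal medium it was 1.65-fold higher at day 6 and 1.90-fold higher at day 3, so both medium differences stayed under 2-fold.

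Fosb, also an immediate-early gene, was dim on every array. Its signal was 127 in osteogenic and 88.9 in normal medium at day 6, and 127 and 60.2 at day 3, between 1.04 and 2.2 times the floor. Both osteogenic arrays were above both normal medium arrays, and no neighbouring step in the order was over 2 SD of the error of dim probe sets. Fosb was 2.11-fold higher in osteogenic medium at day 3 (1.08) and 1.43-fold at day 6 (0.52). With the floor at the 60th percentile, above its signal on both normal medium arrays, the difference at day 3 was 0.09, and with a pseudocount of 32 it was 0.79. Day 6 over day 3 it was 1.48-fold higher in normal medium (0.56) and level in osteogenic medium (0.0).

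Fosl1, which encodes Fra-1, was highest in osteogenic medium at day 6. On its brighter probe set the signal was 397.5 in osteogenic medium at day 6, 41.6 and so below the floor in normal medium at day 6, 143 in osteogenic medium at day 3 and 177.5 in normal medium at day 3. On the dimmer probe set it was 164, 31.7, 111 and 36.5 on the same arrays, so both normal medium arrays were below the floor there. Osteogenic over normal medium at day 6, Fosl1 was at least 6.87-fold higher on the brighter (2.78) and at least 2.84-fold higher on the dimmer probe set (1.51), and 25 of 11901 genes had a difference above that of the brighter one. At day 3 the probe sets disagreed, with 1.24-fold lower on the brighter (-0.31) and at least 1.91-fold higher on the dimmer one (0.94).

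Between days, the brighter probe set of Fosl1 differed in opposite directions in the media. Day 6 over day 3 it was 2.77-fold higher in osteogenic medium (1.47) and at least 3.07-fold lower in normal medium (-1.62), where 3 genes had a lower value. The dimmer probe set had 0.57 in osteogenic medium and was below the floor on both normal medium arrays. The lower value in normal medium thus rests on 1 probe set and on its value in normal medium at day 3. The order of the brighter set put osteogenic day 6 first by 1.16, normal and osteogenic day 3 next with 0.31 between them, which is under the error, and normal day 6 last by 1.31.

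Fosl2, which encodes Fra-2, had probe sets that differed. The brighter one had 3671 in osteogenic and 2128 in normal medium at day 6, and 2494 and 2550 at day 3, so that osteogenic day 6 stood above the other arrays by 0.53 on the log2 scale and the other neighbours lay within 2 SD of the error. The dimmer one had 162 and 189 at day 6 and 173 and 275 at day 3, with osteogenic day 6 the lowest array. In osteogenic over normal medium the brighter set gave 0.79 (1.73-fold higher) at day 6 and -0.03 at day 3, and the dimmer set -0.23 and -0.67. Averaging them gave 0.28 at day 6 and -0.35 at day 3.

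Among the JUN genes other than Junb, Jun was level and Jund was somewhat higher in osteogenic medium. Jun, which encodes c-Jun, had signals of 1846 in osteogenic and 2098 in normal medium at day 6, and 2133 and 1877 at day 3. Its dimmer probe set had 814, 968, 900.2 and 826 in the same order. The largest ratio between any arrays was 1.16-fold on the brighter and 1.19-fold on the dimmer probe set, and no neighbouring step was over the 1 SD error. Jund, whose product in many cells opposes growth, had 6586 in osteogenic and 4153 in normal medium at day 6, and 4987 and 3850 at day 3. Both osteogenic arrays were above both normal medium arrays, 1.59-fold at day 6 (0.67) and 1.30-fold at day 3 (0.37), and no neighbouring step was over 2 SD of the error.

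**Figure D2:**
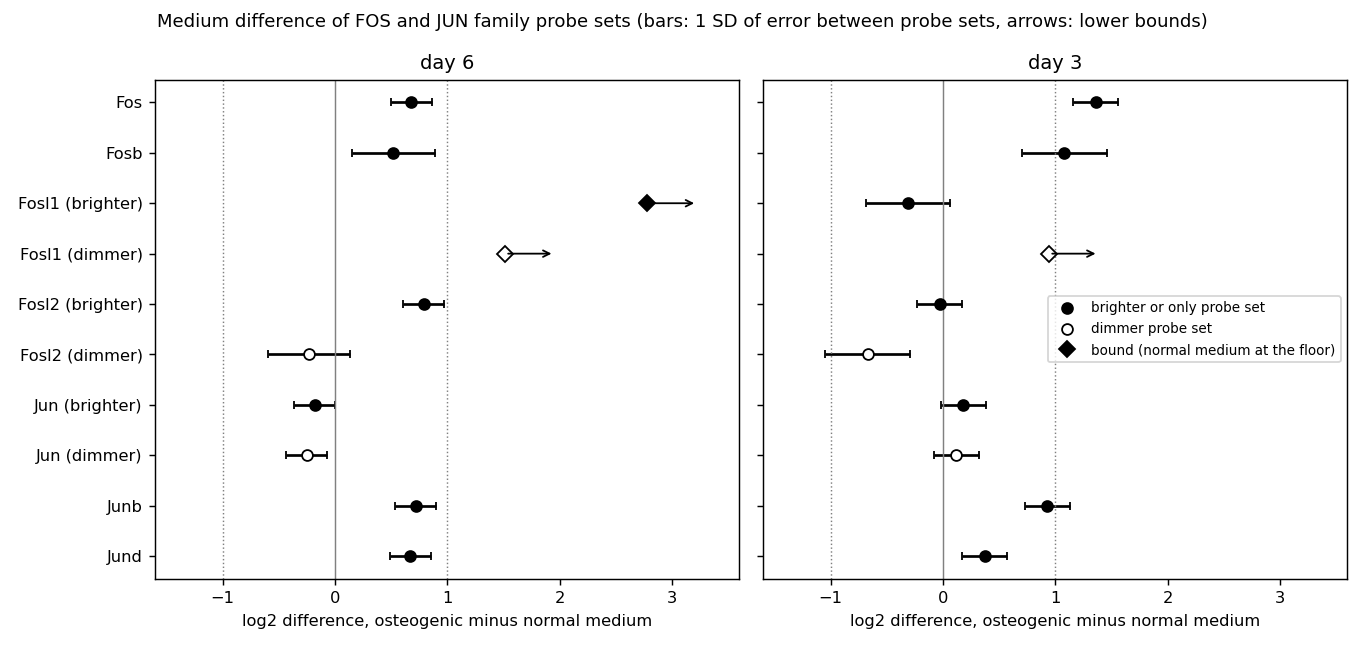
Log2 difference of osteogenic minus normal medium for the 10 probe sets above the floor on an array, at day 6 (left) and day 3 (right). Bars are 1 SD of the error between probe sets, diamonds with arrows are lower bounds and dotted lines mark 2-fold. Only Fosl1 passes 2-fold at day 6 and only Fos and Fosb at day 3, and the 2 probe sets of Fosl2 lie apart.

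Counted together, 1 of 7 members was higher and 0 were lower, osteogenic over normal at day 6, where 4.18% of 11901 measured genes were higher and 2.78% lower. The one was Fosl1, and 6 of 7 lay above zero, with a median log2 difference of 0.68 against 0.013 for all genes. At day 3, 2 of 7 were higher, Fos and Fosb, and 0 lower, where 1.99% of 11861 genes were higher and 1.59% lower. The median was 0.37 against 0.0092, with 5 of 7 above zero. Taking both days in an additive limma fit of medium and day, with 1 residual degree of freedom, 0 of 12503 genes and so 0 members passed an adjusted p of 0.05 for the medium. At an unadjusted p under 0.05 there were 1737 genes (13.9%) and 4 of 7 members, with limma's variances, which borrow from other genes. With each gene's own variance there were 848 genes, and members were not counted. The medium estimates were 1.02 ± 0.23 (SE, adjusted p = 0.246) for Fos, 0.82 ± 0.18 (0.234) for Junb, 0.80 ± 0.22 (0.278) for Fosb and 0.52 ± 0.18 (0.34) for Jund. Fosl1 had 1.24 ± 0.73 (0.526), Fosl2 0.38 ± 0.26 (0.574) and Jun 0.00 ± 0.19 (1).

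Between days, 3 of 7 members were higher and 0 lower at day 6 than at day 3 in osteogenic medium, namely Fos, Junb and Fosl1, where 3.70% of 11947 genes were higher and 2.62% lower. In normal medium, 2 of 7, Fos and Junb, were higher and 1, Fosl1, was lower, where 0.741% of 11736 genes were higher and 0.741% lower. The family medians were 0.56 in osteogenic and 0.16 in normal medium, against -0.0012 and -0.015 for all genes. In the additive limma fit the day estimate was 3.36 ± 0.23 (SE, adjusted p = 0.474) for Fos and 1.73 ± 0.18 (0.498) for Junb. No gene passed for the day, 0 of 12503, whereas 919 (7.35%) had an unadjusted p under 0.05, among them 2 of the 7 members. With each gene's own variance there were 607 genes, and members were not counted. For the other 5 members the adjusted p was 0.772 to 0.983.

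**Figure D3:**
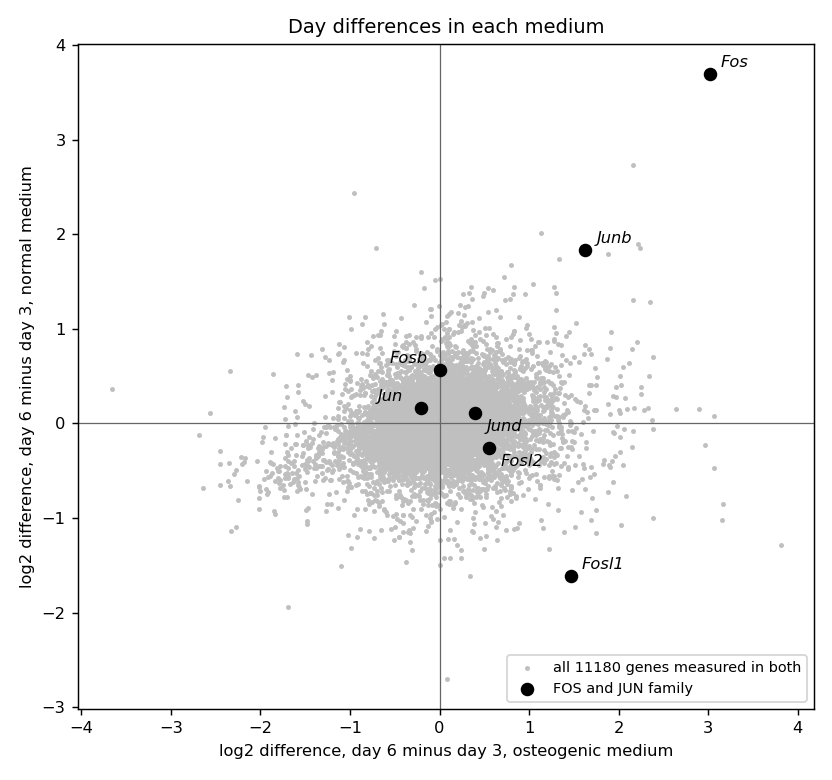
Log2 difference of day 6 minus day 3 in osteogenic medium (horizontal) and in normal medium (vertical) for 11180 genes measured in both (grey) and for the 7 members (black). Fos lies at 3.02 and 3.70, Junb at 1.63 and 1.83, and Fosl1 at 1.47 and -1.62, the last of these a bound.

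Genes whose 4 values lay nearest those of a member were taken by the root mean square distance between centred log2 values, over 4 arrays and 11832 candidate genes. Those nearest Fos were Ier2 at a distance of 0.56, the phosphatase gene Dusp1 at 0.76, Nfkbiz, which encodes a nuclear IκB protein, at 0.79, Egr1 at 0.93 and F13a1 at 0.98. Ier2, Dusp1 and Egr1 are immediate-early genes. Ier2 had a signal of 7560 in osteogenic and 7246 in normal medium at day 6, and 1692 and 1089 at day 3. Nearest Junb were Ttll11 at 0.19, Nfkbiz at 0.20, Egr1 at 0.25, F13a1 at 0.29 and Dusp1 at 0.31, so 4 genes were common to both members. Ttll11 was below the floor in normal medium at day 3, so its distance and rank rest on a floored value. Between members themselves, Fos and Junb were 0.83 apart, and the smallest distance was 0.16, between the brighter probe sets of Fosl2 and Jund. The dimmer probe set of Fosl2 was instead lowest in osteogenic medium at day 6, so this likeness depends on the probe set.

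Nearest Fosl1 were Steap1, a metalloreductase gene, at 0.22, Tmem151a at 0.32, Akna at 0.34, Slc20a1 at 0.35 and Cyp2c23 at 0.37. Fosl1 and Cyp2c23 were both at the floor in normal medium at day 6, so these distances rest on floored values. Slc20a1 encodes a sodium-phosphate cotransporter, with a signal of 1159 in osteogenic and 271 in normal medium at day 6, and 531 and 435 at day 3. Steap1 had 2261 and 331 at day 6, and 859.8 and 731 at day 3. Both were thus highest in osteogenic and lowest in normal medium at day 6, as the brighter probe set of Fosl1 was, the likeness by which they were picked. The dimmer probe set of Fosl1 was below the floor on both normal medium arrays, so this likeness depends on the probe set. Nearest Fosb were Bbc3 at 0.02, Ehd3 at 0.04 and Adam4, Glis1 and Sh2d4a at 0.05 each, the last 3 with an array below the floor.

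**Figure D4:**
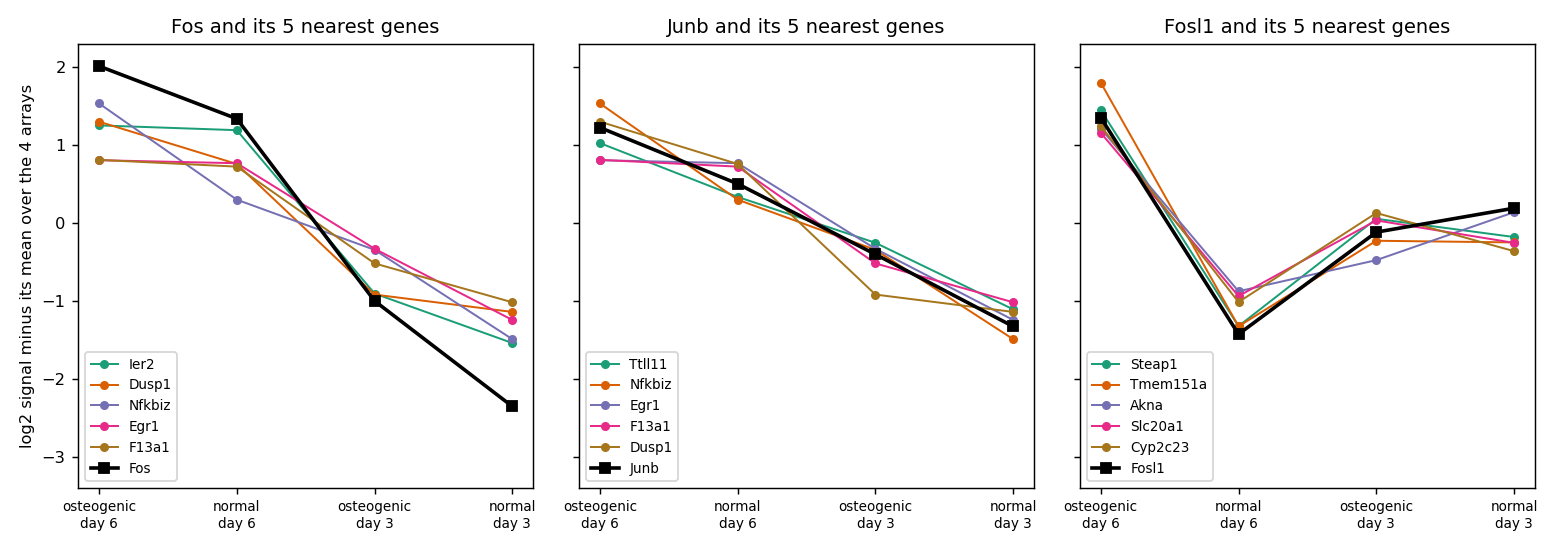
Log2 signal minus its mean over the 4 arrays for Fos, Junb and Fosl1 (black squares) and the 5 genes nearest each (coloured). Fos and Junb descend from osteogenic day 6 to normal day 3, while Fosl1 (brighter probe set) and its neighbours are lowest in normal medium at day 6.

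Some other immediate-early genes also passed 2-fold between days. Of 20 such genes measured, 5 were higher and 0 lower at day 6 than at day 3 in osteogenic medium. The median was 0.69, and 3.70% of all genes were higher and 2.62% lower. In normal medium 7 were higher and 0 lower, with a median of 0.72, against 0.741% and 0.741% of all genes. In osteogenic over normal medium 3 were higher at day 6, Nr4a2 (1.57), Ccn2 (1.41) and Klf4 (1.08), and 0 at day 3, with medians of 0.22 and 0.43. The shares of all genes higher in osteogenic over normal medium were 4.18% at day 6 and 1.99% at day 3. Egr1, a zinc finger transcription factor, had medium differences of 0.04 at day 6 and 0.91 at day 3, against 0.68 and 1.36 for Fos.

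Among genes for other zipper proteins that pair with AP-1 subunits, a minority passed 2-fold between media. Of 11 measured, 2 were higher and 0 lower at day 6, against 4.18% and 2.78% of all genes, with a median of 0.65. At day 3, 0 were higher and 0 lower, against 1.99% and 1.59% of all genes, with a median of 0.02. The pair was Maff, a small MAF protein gene, at 2.57 and Atf3, a stress-induced member of the ATF family, at 1.85. At day 3 Maff had 0.91 and Atf3 -0.01. Mafk had 0.95 at day 6 and 0.58 at day 3, and Atf4, the mediator of the amino acid response, 0.92 and 0.12. Both Maff (1.48) and Atf3 (1.28) were higher at day 6 than at day 3 in osteogenic medium, against -0.18 and -0.58 in normal medium.

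Few genes for the kinases and factors that act on AP-1 genes passed 2-fold between media, as was so of all genes. At day 6, osteogenic over normal medium, 0 of 18 were higher and 1 was lower, Mrtfa (-1.06), a coactivator of serum response factor, which had -0.70 at day 3. At day 3, 0 were higher and 1 lower, Mef2c (-1.05, a bound), which had 0.51 at day 6, also a bound. Medians were 0.03 at day 6 and -0.20 at day 3. Mef2d had 0.68 and -0.28, and Map2k1, a kinase of the ERK pathway, 0.19 and -0.68. Among 5 genes for AP-1 cofactors and turnover, 0 passed 2-fold in any of the 4 comparisons. The share of all genes higher, or lower, was at most 4.18% in each, so 0 of 5 says little about this list. Itch, an E3 ligase that targets JUN proteins, had -0.54 at day 6 and -0.55 at day 3, Fbxw7, an E3 ligase subunit that recognises c-Jun, -0.56 and 0.05, Apex1, which keeps AP-1 reduced, 0.28 and 0.52, and the coactivator gene Cops5 -0.36 and -0.10.

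Among genes that AP-1 is known to activate, many were higher in osteogenic medium at day 6 and none at day 3. Of 17 measured at day 6, 8 were higher and 1, the gelatinase gene Mmp9 (-1.07, named after its value was seen), lower, with a median of 0.81. Among the 8, Il6 (1.21, also named after its value was seen) was a bound. Over all genes 4.18% were higher and 2.78% lower. Of 13 measured at day 3, 0 were higher and 0 lower, against 1.99% and 1.59% of all genes, with a median of 0.04. The examples with the largest differences were Ptgs2, the inducible cyclooxygenase, with 2.65 at day 6 and 0.80 at day 3, Tgfb1 with 1.71 and 0.15, Timp1, an inhibitor of matrix proteases, with 1.67 and 0.86, and the cytokine gene Lif with 1.65 and 0.71. Between days, 7 of 16 were higher and 0 lower at day 6 in osteogenic medium, against 3.70% and 2.62% of all genes. In normal medium 1 of 15 was higher and 0 lower, against 0.741% and 0.741% of all genes. That one was Mmp13, the osteoblast collagenase, named after its value was seen, with signals of 3141 in osteogenic and 1956 in normal medium at day 6, and 617 and 804 at day 3. Mmp13 was higher at day 6 by 2.35 in osteogenic and by 1.28 in normal medium on the log2 scale. The part of AP-1 in these differences was not tested.

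Of 5 osteoblast matrix genes measured, Ibsp and Alpl were higher in osteogenic medium at both days and 0 were lower. Over all genes 4.18% were higher at day 6 and 1.99% at day 3. The other matrix genes, Col1a1, Col1a2 and Mgp, had differences of 0.03, 0.07 and 0.09 at day 6 and of -0.21, -0.26 and -0.21 at day 3. Ibsp, the bone sialoprotein gene, was 5.44 and 3.53 higher on the log2 scale at day 6 and day 3.

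**Figure D5:**
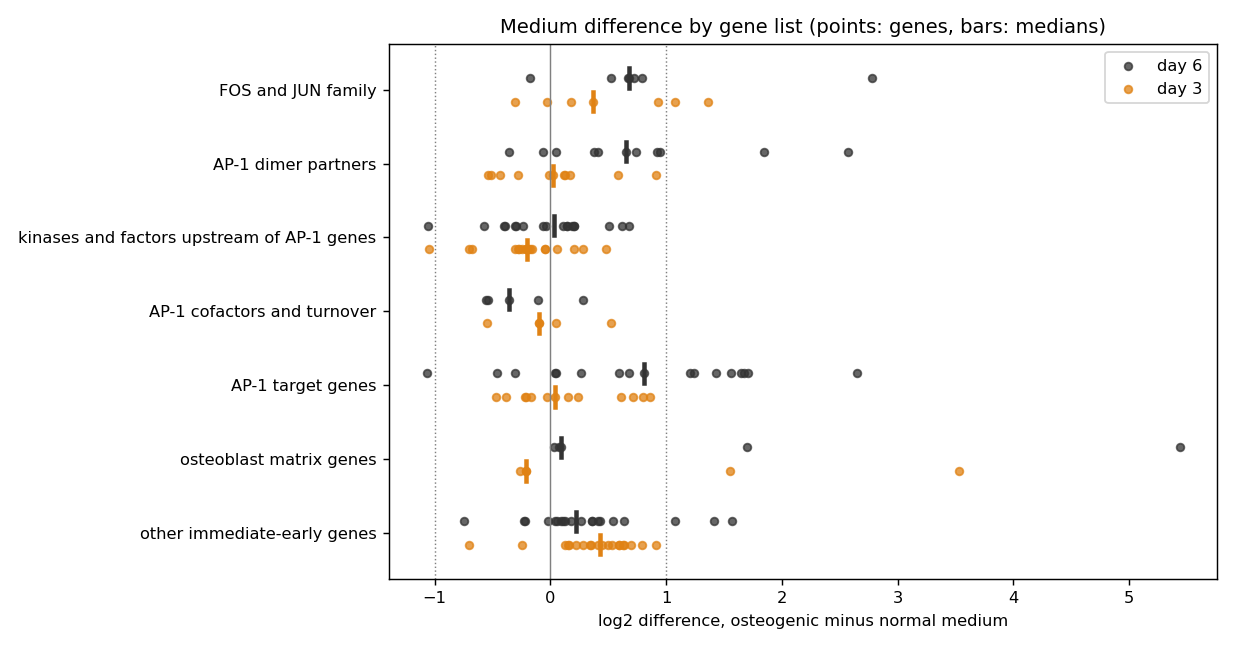
Log2 difference of osteogenic minus normal medium for the family and 6 lists of related genes at day 6 (grey) and day 3 (orange). Points are genes, short bars are medians and dotted lines mark 2-fold. The medians of dimer partners (0.65 and 0.02) and of AP-1 target genes (0.81 and 0.04) are higher at day 6 than at day 3, and that of the other immediate-early genes (0.22 and 0.43) is not.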

How the data were processed

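The data are 4 Affymetrix Mouse Genome 430 2.0 arrays of MC3T3-E1 RNA, 1 per group. The authors deposited 1 linear signal intensity per probe set and array. A mean trimmed by 2% at either end came to 500.0 on every array. No source used here names the software or summarization method, and no detection calls were used. Of 45101 probe sets, 64 were controls, 34945 had 1 gene symbol, 932 several and 9160 none in GEO's annotation of the array, whose names were updated by Entrez ID through RefSeq GRCm38.p6.

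Arrays were scaled, without the control probe sets, to the same 75th percentile, by factors of 0.988 to 1.02. Signals were set to a floor at the pooled 50th percentile, 57.8, and log2 was taken. The probe set with the highest mean stood for a gene, and a gene entered a comparison where either array exceeded the floor. A value at the floor on 1 side gives a bound, written "at least". The error between probe sets is the scaled median absolute deviation of the differences between the 2 brightest probe sets of 4761 genes above the floor on all arrays. All genes were fitted with limma 3.58.1 (R 4.3.3) with medium and day as additive terms, and p-values were Benjamini-Hochberg adjusted over all 12503 genes. A medium difference that varies with the day enters its residual. Named genes were the members, up to 4 genes per list by largest medium difference, and the 5 nearest genes of each member whose log2 values span over 1. Members and lists were chosen with earlier results of these data known. Some listed genes, Bglap, Runx2 and Spp1 among them, are not analysed here. Precision is limited by having 4 arrays.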

Additional observations from a re-analysis of the deposited data

Results flagged for a closer look

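Some members had medium differences or day differences of opposite sign between days or between media, each between single arrays, and the change itself was not tested. The brighter probe set of Fosl1 had a medium difference (log2, osteogenic over normal) of at least 2.78 at day 6 and of -0.31 at day 3, and a day difference (day 6 over day 3) of 1.47 in osteogenic and -1.62, a bound (at least that much lower), in normal medium. Its dimmer probe set had medium differences of 1.51 and 0.94, both bounds and both above zero, so the sign at day 3 depends on the probe set.

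The brighter probe set of Fosl2 had medium differences of 0.79 at day 6 and -0.03 at day 3, and day differences of 0.56 in osteogenic and -0.26 in normal medium. Jun had small differences of opposite sign on both of its probe sets. On the brighter, the medium difference was -0.18 at day 6 and 0.18 at day 3, and the day difference -0.21 in osteogenic and 0.16 in normal medium. On the dimmer, these were -0.25 and 0.12, and -0.15 and 0.23. The values of Jun are close to the error between probe sets, 0.175 to 0.204 for bright ones.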

How the results depend on the processing

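Recomputed log2 differences of members were set against the error over all pairs of probe sets, bright and dim together, 0.206 to 0.237 by comparison. They moved by less than this error in 260 cases and by more in 17, all of them of Fosb, Fosl1 or Fosl2. Of the differences that had passed 2-fold, 0 changed sign. The count of members higher at day 3 in osteogenic over normal medium was 1 in place of 2 under a 60th percentile floor and under a pseudocount of 32, since Fosb did not pass. The count higher at day 6 was 5 in place of 1 at 1.5-fold, and 0 when a gene had to be above the floor on both arrays, which leaves out Fosl1. The count lower at day 6 than at day 3 in normal medium, Fosl1 alone, was 0 under a 60th percentile floor, with averaged probe sets and with both arrays above the floor. The other 103 recomputed counts were within 1.5 times the main one. The bound of Fosl1 at day 6 ranged from 1.73 to 3.26, and its difference at day 3 was 0.31 with averaged probe sets. Fos ranged from 3.55 to 3.77 for the day in normal medium and from 1.26 to 1.38 for the medium at day 3. The additive fit called 0 members under each alternative run for it, with a lowest adjusted p among members of 0.204 for the medium and 0.264 for the day. It cannot be repeated without the osteogenic day 6 array, since 3 arrays leave no residual degree of freedom. The day 3 medium comparison and the normal medium day comparison do not use that array. No replicate block could be fitted, since each group has 1 array, and the additive fit already compares the media within each day. Signals of Fosb within 2.2 times the floor limit what can be said of it.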
